A study of Mus musculus with 4 samples.

Results

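The genes described here encode the machinery that prepares peptides for MHC class I and the immunoproteasome. They are Nlrc5, Tap1, Tap2, Tapbp, B2m, Psmb8, Psmb9, Psmb10, Psme1 and Psme2, chosen by name as a list of 10 genes out of 41388 listed in the count tables. RNA-seq measured their transcripts in Mnk3. This mouse line is used as a model of ILC3, the innate lymphoid cells of group 3, which are tissue lymphocytes that answer cytokines rather than antigen. Ribosomal RNA was depleted from total RNA before sequencing. The 2 control libraries came from Mnk3 cells left untreated, and the 2 stimulated libraries from Mnk3 cells cultured with both IL-1b and IL-23. Each cytokine was given at 10 ng/ml, and culture lasted about 16 h in either group. All groups are the same cell line, and no genetic change is named in the labels. The library numbered 1 in each group has rep1 in its title, and the other has no number. Nothing in the labels states that the libraries of a group were separate cultures. The p-values therefore rest only on how far these libraries lie apart, and that spread may be technical.

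MHC class I molecules display peptides from inside the cell to CD8 T cells and to receptors of natural killer cells. Proteins are cut by the proteasome, the peptides are pumped into the endoplasmic reticulum by the TAP transporter, and tapasin helps to load them onto a heavy chain paired with beta-2 microglobulin. Interferon gamma is known to raise the genes of this pathway and to exchange the catalytic subunits of the proteasome for those of the immunoproteasome, which cuts in a way that favours class I peptides. NLRC5 is the transactivator of class I genes, as CIITA is of class II genes.

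Summed gene counts were 23047723 to 29078765 per library. Levels are CPM scaled by TMM, a scaling for library size and composition, and are called CPM below. Values of a pair of libraries are given in the order 1, 2. Each change is given as log2 of stimulated relative to control, ± SE, from edgeR's quasi-likelihood test, and a gene rose or fell where its p-value, adjusted by Benjamini-Hochberg over all 13838 genes tested, was under 0.05. The SE was derived from the change and its F statistic and is approximate. All 10 ILC3 markers examined were detected, among them Il23r at 219 to 227 CPM in the controls. Their sum was 4523 to 4538 CPM in controls and 1952 to 2078 CPM in stimulated libraries, where 6 of the 10 fell and 1 rose. Of all genes tested, 18.3% fell and 17.5% rose. Markers of other cells were low in part: Lyz2 and Cd14 were at 0 in all libraries, and 4 of 8 myeloid, 3 of 6 B cell, 3 of 6 T cell, 5 of 6 stromal and 2 of 6 dendritic cell markers stayed under 1 CPM in every library. Summed levels of these lists were 142 to 145 CPM in controls and 30.2 to 43.1 in stimulated libraries for the myeloid markers, mostly Fcgr3, and 172 to 179 against 262 to 299 CPM for the dendritic markers, mostly Batf3, Zbtb46 and Xcr1. They were 37.7 to 62.2 against 8.04 to 15.2 CPM for B cell, 19.6 to 23.95 against 12.0 to 16.0 for T cell and 7.47 to 8.57 against 1.43 to 2.19 for stromal markers. Among the myeloid markers Fcgr3 fell from 142 and 138 to 25.6 and 31.0 CPM, and Adgre1 rose from 0.0664 and 0 to 1.74 and 8.19 CPM. Among the dendritic markers Batf3 rose from 70.8 and 52.2 to 253 and 208.5 CPM. Zbtb46 fell from 74.6 and 70.8 to 34.9 and 38.8 CPM, and Xcr1 fell from 26.15 and 54.0 to 10.8 and 14.0 CPM. The part of these markers in the results was not tested. In bulk RNA, fewer cells that express a gene and less RNA per cell cannot be told apart.

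Of the 10 genes, 8 rose, none fell, and Tapbp and B2m did not pass. Over all genes tested, 35.8% passed, 17.5% higher and 18.3% lower. In edgeR at an unadjusted p under 0.05 the counts of the 10 were 8 higher and 0 lower. At an adjusted p under 0.05 they were 9 and 0 in DESeq2 and 8 and 0 in limma-voom. The median change of the 10 was 1.25 on the log2 scale, beside -0.0164 over all genes tested. The steepest rises were those of Nlrc5, Psme2 and Tap1, and the smallest change was that of Tapbp. Both stimulated libraries lay above both controls for 9 of the 10, as they did for 34.4% of all genes tested, while 36.3% of all genes had both below. Tapbp was the exception. The sum of the 10 genes was 2843 and 3031 CPM in controls 1 and 2 and 4834 and 4789 CPM in stimulated 1 and 2.

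**Figure D1:**
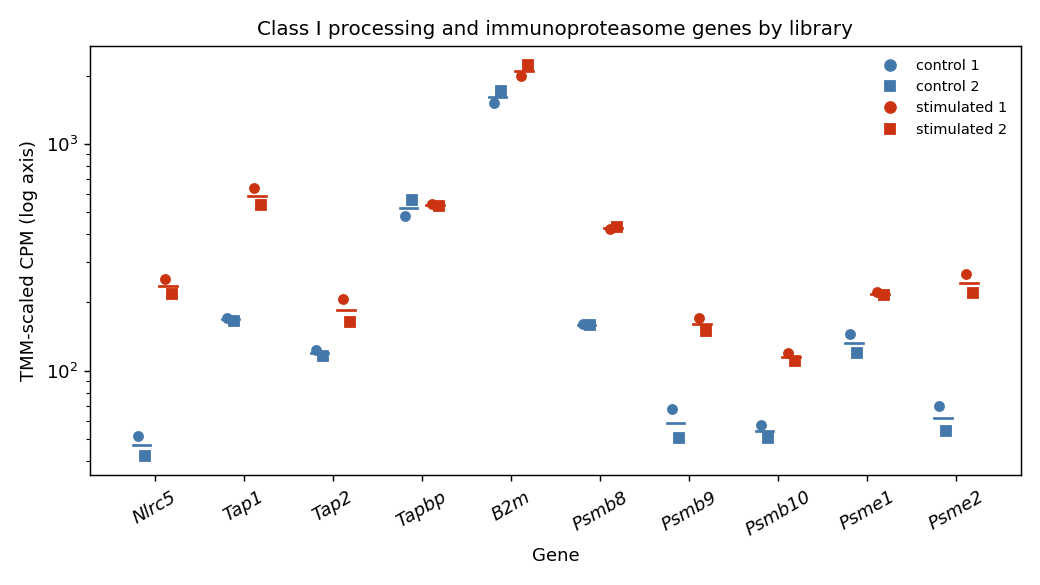
Level of each of the 10 genes in each library, as TMM-scaled CPM on a log axis. Points are single libraries (n = 2 per group) and short lines are group means. Nlrc5 moves from a mean of 47.0 to 236 CPM, and the groups of Tapbp overlap.

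Nlrc5, which encodes the class I transactivator, had 51.8 and 42.2 CPM in controls 1 and 2 and 254 and 219 CPM in stimulated 1 and 2. The stimulated libraries were well separated from the controls. Its mean rose from 47.0 ± 6.80 to 236 ± 25.0 CPM (SD, n = 2), a log2 change of 2.33 ± 0.17 and a fold of 5.03 (edgeR adjusted p = 0.000314). By log2 change it ranked 262 from the top among the 13838 genes tested. Its direction and call held in all 13 alternatives, where the change ran from 2.19 to 2.48.

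The catalytic subunits of the immunoproteasome all rose, by 1.09 to 1.44 on the log2 scale. Psmb8, which encodes the subunit LMP7 with chymotrypsin-like activity, had 160 and 159 CPM in the controls and 423 and 429 CPM in the stimulated libraries. Its libraries within a group lay very close, and it changed by 1.41 ± 0.14, a fold of 2.67 (edgeR adjusted p = 0.000737). Psmb9, which encodes LMP2, had 67.6 and 50.7 CPM in the controls and 171 and 150 CPM after stimulation. It changed by 1.44 ± 0.18, a fold of 2.71 (edgeR adjusted p = 0.00171). Psmb10, which encodes MECL-1, the subunit that takes the trypsin-like site, had 57.6 and 50.6 CPM in the controls and 120 and 111 CPM in the stimulated libraries. It changed by 1.09 ± 0.14, a fold of 2.13 (edgeR adjusted p = 0.00196). No control library of these genes reached the level of a stimulated one.

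The genes of PA28, the ring-shaped activator that docks on the proteasome and is built from an alpha and a beta subunit, rose unequally. Psme1, which encodes PA28 alpha, had 145 and 120 CPM in the controls and 221 and 215 CPM after stimulation, a change of 0.72 ± 0.15 (edgeR adjusted p = 0.0111). Psme2, which encodes PA28 beta, had 70.0 and 54.4 CPM in the controls and 268 and 221 CPM after stimulation, a change of 1.98 ± 0.19 and a fold of 3.93 (edgeR adjusted p = 0.000686). In neither gene did a control reach a stimulated library. Psme2 has a retrocopy, Psme2b, which holds 28.3% of its distinct 50-base stretches and 18.4% of those of 100 bases, so reads could be split between them. Psme2b was at 0.531 and 0.752 CPM in the controls and 2.22 and 3.15 CPM after stimulation.

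The TAP transporter is built from the products of Tap1 and Tap2, and its genes also rose unequally. Tap1 had 172 and 166 CPM in the controls and 640 and 536 CPM in the stimulated libraries, a change of 1.80 ± 0.16 and a fold of 3.48 (edgeR adjusted p = 0.000575). Tap2 had 124 and 116 CPM in the controls and 206 and 164 CPM in the stimulated libraries, a change of 0.63 ± 0.16 and a fold of 1.54 (edgeR adjusted p = 0.0226). The Tap2 groups did not overlap, but its stimulated libraries lay further apart than its controls. The call of Tap2 ended without control 2 (0.58, edgeR adjusted p = 0.0643) and without stimulated 1 (0.45, edgeR adjusted p = 0.13).

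Tapbp, which encodes tapasin, the editor that bridges TAP and the class I molecule, did not pass. It had 479 and 565 CPM in the controls and 542 and 531 CPM after stimulation, and both stimulated values fell between the controls. The change was 0.04 ± 0.15 (edgeR adjusted p = 0.863). Its sign depended on the scaling, with -0.010 under upper quartile and -0.051 under total-count scaling, and it was -0.076 without control 1. B2m, which encodes the light chain shared by all class I molecules, had 1516 and 1707 CPM in the controls and 1988 and 2215 CPM after stimulation. Both stimulated libraries lay above both controls, but the change of 0.38 ± 0.17 did not pass (edgeR adjusted p = 0.115). In DESeq2 B2m passed with a change of 0.40 (adjusted p = 0.0381).

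The order of transcript levels among the 10 genes changed with stimulation. Levels between genes are compared here as CPM per kilobase of the exon length listed in the count tables. In controls B2m was far ahead at 1874 ± 157 per kilobase, followed by Tapbp at 158 ± 18.6. Next came Psme1 at 60.0 ± 8.08 and Psmb8 at 58.4 ± 0.30, whose libraries overlapped, and then Psmb10 at 42.6 ± 3.87 per kilobase. Psme2 at 35.2 ± 6.27, Tap2 at 31.7 ± 1.46 and Tap1 at 30.8 ± 0.69 could not be ordered beyond their spread. Psmb9 at 16.2 ± 3.28 and Nlrc5 at 6.14 ± 0.89 per kilobase were the lowest by this length. In stimulated libraries B2m had 2444 ± 187, Tapbp 163 ± 2.41 and Psmb8 156 ± 1.70 per kilobase. Psme2 followed at 139 ± 19.1 per kilobase. Tap1 at 107 ± 13.5 and Psme1 at 98.7 ± 2.15 overlapped, and Psmb10 had 90.8 ± 5.29 per kilobase. Tap2 at 49.0 ± 7.94 and Psmb9 at 43.9 ± 4.12 overlapped, and Nlrc5 remained last at 30.9 ± 3.26 per kilobase. The listed length joins the exons of all transcripts of a gene, which lowers the level of genes with long rare exons. The order below B2m turned with the length used. With the length of the principal transcript in GENCODE M21, the stimulated means of Psmb8 (262 per kilobase), Psme2 (254), Tap1 (199) and Psme1 (196) all lay above that of Tapbp (185). With that length Psmb9 lay above Psmb10 after stimulation, with means of 119 against 88.0 per kilobase. Their control means of 43.7 and 41.3 per kilobase could not be ordered beyond their spread. Psmb9 then also had higher means than Tap2, with 43.7 against 34.9 per kilobase in controls and 119 against 53.8 after stimulation. The control means of Psme2 (64.6) and Tap1 (57.2) lay above that of Tap2 as well.

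The immunoproteasome is known to form when Psmb8, Psmb9 and Psmb10 products take the places of those of Psmb5, Psmb6 and Psmb7, and the constitutive genes rose as well. Psmb5 went from 23.3 and 20.3 CPM in the controls to 39.3 and 46.1 CPM, a change of 0.97 ± 0.16 (edgeR adjusted p = 0.00476). Psmb6 went from 84.7 and 61.4 to 169 and 140 CPM (1.08 ± 0.20, edgeR adjusted p = 0.00664), and Psmb7 from 183 and 157 to 375 and 344 CPM (1.08 ± 0.15, edgeR adjusted p = 0.00247). All 3 rose. Psmb5 shares 54.1% of its 50-base stretches with other transcripts, mainly the annotated gene Gm3375, so its count is uncertain.

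The balance between replacing and replaced subunit was therefore computed within each library, as a ratio of counts per kilobase. Psmb8 to Psmb5 was 2.20 and 2.49 in the controls and 3.42 and 2.97 after stimulation, a log2 change of 0.45. Psmb9 to Psmb6 was 0.408 and 0.423 in the controls and 0.519 and 0.549 after stimulation, a log2 change of 0.36. Both ratios were thus higher in each stimulated library than in either control. Psmb10 to Psmb7 was 0.301 and 0.308 in the controls and 0.306 and 0.307 after stimulation, a log2 change of 0.01, and its groups overlapped. The sum of the immunosubunits over the sum of the constitutive subunits was 0.550 and 0.603 in the controls and 0.666 and 0.693 after stimulation, a log2 change of 0.24. This summed ratio and Psmb8 to Psmb5 rest in part on the count of Psmb5, which is uncertain, as given above. The partner genes of TAP and PA28 shifted further, in ratios chosen after their values were seen. Tap1 to Tap2 was 0.956 and 0.988 in the controls and 2.14 and 2.26 after stimulation, a log2 change of 1.18. Psme2 to Psme1 was 0.603 and 0.567 in the controls and 1.52 and 1.29 after stimulation, a log2 change of 1.26. Reads that could be split between Psme2 and Psme2b bear on that ratio. H2-K1, a classical heavy chain, stood to B2m at 0.335 and 0.322 in the controls and 0.370 and 0.349 after stimulation, a log2 change of 0.13. For 6 of the 7 ratios the exact two-sided permutation test gave p = 0.333 (0.389 adjusted over the 7), the smallest that 2 against 2 libraries allow, and for Psmb10 to Psmb7 it gave p = 1. The ratio itself depends on the length used, while its change between groups does not for single genes. With principal transcript lengths the mean of Tap1 to Tap2 was 1.64 in controls and 3.71 after stimulation.

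**Figure D2:**
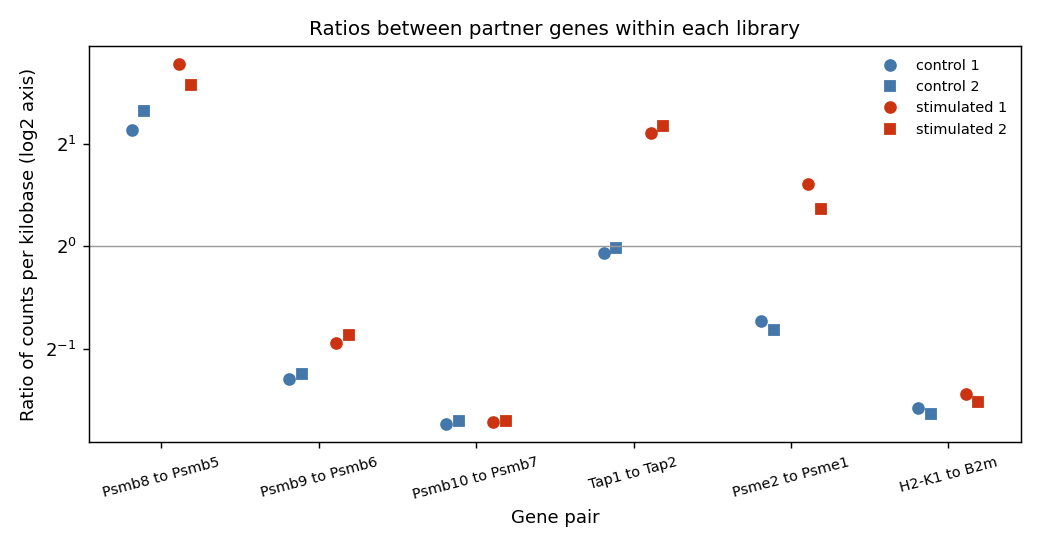
Ratio of counts per kilobase of listed exon length between partner genes in each library, on a log2 axis, with a line at equal levels. Points are single libraries (n = 2 per group). Tap1 to Tap2 moves from a mean of 0.972 to 2.20 and Psme2 to Psme1 from 0.585 to 1.40, while Psmb10 to Psmb7 has 0.304 and 0.307. With principal transcript lengths the Tap1 to Tap2 means are 1.64 in controls and 3.71 after stimulation, both above the line.

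Psmb9, Tap1, Psmb8 and Tap2 are neighbours in the class II region of the mouse MHC, and no other tested gene around them rose. In the coordinates of the count tables, Psmb9 lies on chromosome 17 from 34181988 to 34187764 on the minus strand, Tap1 from 34187553 to 34197225, Psmb8 from 34197721 to 34201454 and Tap2 from 34203527 to 34216321, all on the plus strand. Together they span 34.3 kb. The count tables name no genome build, but Tap1, Psmb8 and Tap2 have the same bounds as in GENCODE M21, which is on GRCm38. Within 100 kb of the listed Tap1 start the tables hold 17 genes, of which 10 were tested. Of these, 4 rose, 2 fell and 4 did not pass. Those that rose were Psmb9, Tap1, Psmb8 and Tap2, which the count of the 10 genes above already holds, so they add no further rise. The window was chosen after values were seen. The shares over all genes tested were 17.5% higher and 18.3% lower. The nearest tested gene on the side of Psmb9, H2-DMa, a peptide exchanger for class II, had -0.03 ± 0.25 (edgeR adjusted p = 0.951). Brd2, a chromatin reader further out on that side, had 0.33 ± 0.14 (edgeR adjusted p = 0.111). H2-Oa, a modulator of class II loading, and H2-Aa, a class II alpha chain, fell from low levels. Beyond Tap2 on the other side, H2-Aa was the only tested gene, and it begins 95.2 kb from the listed Tap1 start. H2-Oa had 2.02 and 1.37 CPM in the controls and 0.119 and 0.482 CPM after stimulation (-2.51 ± 0.59, edgeR adjusted p = 0.0172). H2-Aa had 0.863 and 0.888 against 0.198 and 0.306 CPM (-1.79 ± 0.46, edgeR adjusted p = 0.0239). The change of H2-Oa was -1.81 without stimulated 1 and -3.76 without stimulated 2. The call of H2-Aa ended with each library left out in turn (edgeR adjusted p = 0.0524 to 0.125) and in DESeq2 (adjusted p = 0.111). Exons of Tap1 and Psmb9 share 212 bases on opposite strands, 3.9% of those of Tap1, and the use of strand in counting is unknown here. Antisense genes that overlap Psmb8 and Tap2 were low, with Gm20496 at 0.922 to 2.01 and Gm15821 at 0.796 to 1.40 CPM over the 4 libraries.

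**Figure D3:**
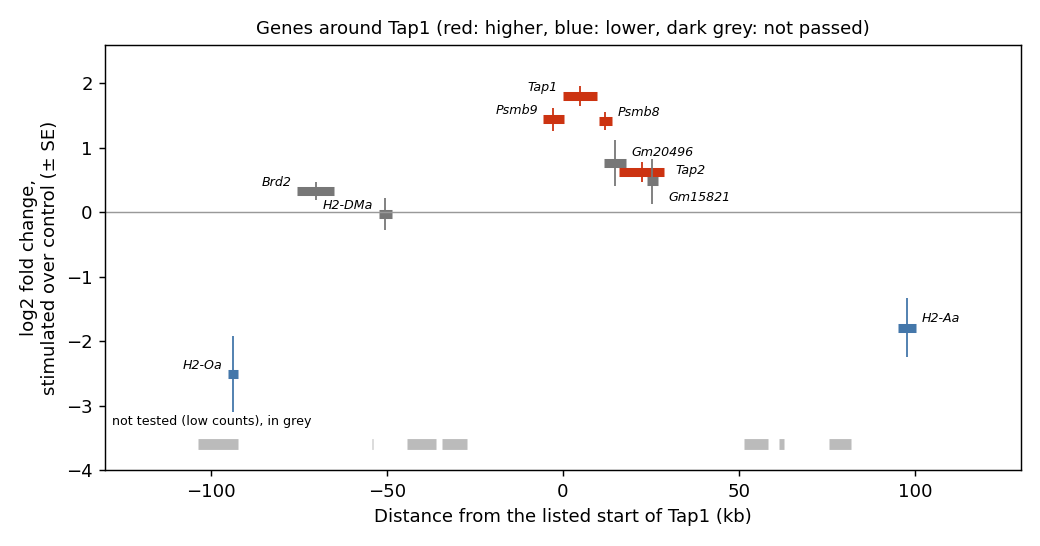
Genes within 100 kb of the listed start of Tap1, by distance in kb (horizontal axis) and log2 fold change of stimulated over control (vertical axis). Thick bars span each gene, thin lines are ± SE, and genes with too few counts for a test are drawn in grey at the bottom. Psmb9, Tap1, Psmb8 and Tap2 are the tested genes that rose, at 1.44, 1.80, 1.41 and 0.63.

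Promoter windows are shown for Tap1, because most of it is also the window of Psmb9, and for Psmb8, B2m and Psme1, because they hold the matches to motifs of interferon-induced promoters. Each runs from 250 bases before to 50 bases after the RefSeq start in GRCm38.p6. The Tap1 and Psmb9 starts face away from each other with 225 bases between them, and their windows share 275 bases. The windows are chr17:34187306-34187605 on the plus strand for Tap1, chr17:34197945-34198244 on the plus strand for Psmb8, chr2:122147437-122147736 on the plus strand for B2m and chr14:55578244-55578543 on the plus strand for Psme1. Capitals mark matches, on either strand, to the core of the interferon-stimulated response element (GAAA on each side of any 2 bases), the gamma-activated site (TTCNNNGAA), CCAAT and TGACG, the core of the cAMP response element. No marked match overlaps another.
Tap1 and Psmb9: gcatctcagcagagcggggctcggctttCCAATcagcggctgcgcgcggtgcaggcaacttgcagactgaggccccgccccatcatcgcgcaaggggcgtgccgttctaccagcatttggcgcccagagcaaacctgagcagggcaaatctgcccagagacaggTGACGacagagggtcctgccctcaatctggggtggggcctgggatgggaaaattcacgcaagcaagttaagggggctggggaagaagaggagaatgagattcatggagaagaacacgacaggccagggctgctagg
Psmb8: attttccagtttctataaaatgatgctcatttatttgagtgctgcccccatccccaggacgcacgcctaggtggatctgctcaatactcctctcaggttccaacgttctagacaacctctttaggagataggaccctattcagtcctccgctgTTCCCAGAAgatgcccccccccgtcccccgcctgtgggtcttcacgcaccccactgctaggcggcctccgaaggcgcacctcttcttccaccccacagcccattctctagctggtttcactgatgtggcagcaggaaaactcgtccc
B2m: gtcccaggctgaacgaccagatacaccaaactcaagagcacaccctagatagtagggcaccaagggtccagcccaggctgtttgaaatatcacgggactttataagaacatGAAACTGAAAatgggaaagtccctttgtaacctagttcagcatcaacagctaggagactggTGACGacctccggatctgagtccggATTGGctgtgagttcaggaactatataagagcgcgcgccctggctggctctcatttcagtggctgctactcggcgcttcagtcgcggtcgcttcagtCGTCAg
Psme1: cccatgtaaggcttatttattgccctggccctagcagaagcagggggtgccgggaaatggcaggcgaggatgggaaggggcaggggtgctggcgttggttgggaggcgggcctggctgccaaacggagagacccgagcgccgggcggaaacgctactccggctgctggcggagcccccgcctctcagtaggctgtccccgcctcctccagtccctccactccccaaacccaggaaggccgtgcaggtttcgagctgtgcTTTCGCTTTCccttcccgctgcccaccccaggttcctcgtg
The response element core stands 139 bases before the B2m start and begins at base 10 after the Psme1 start, and it occurs in 3.44% of all 32851 promoter windows. The gamma-activated site stands 97 bases before the Psmb8 start and occurs in 8.3% of all windows. B2m holds TGACG at 78 bases and a reversed CCAAT at 53 bases before its start, and a reversed TGACG at base 45 after it. Tap1 holds CCAAT at 222 and TGACG at 86 bases before its start, and these are the same letters that lie at 8 and 144 bases before the Psmb9 start. CCAAT occurs in 37.41% and TGACG in 20.81% of all windows. A loose NF-kB pattern, GGG and CC with any 5 bases between, can overlap itself and occurs in 50.79% of all windows and in those of 5 of the 8 genes with a window, and is not marked. The windows of Tap1, Tapbp, Psmb9, Psmb10 and Psme2 held neither the response element core nor the gamma-activated site, and Nlrc5 and Tap2 were not examined. A match is a description of letters, not of a site in use.

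Class I heavy chains, the polymorphic partners of B2m, moved mostly upward but by little. Of 17 tested genes, 9 rose, 1 fell and 7 did not pass, beside 17.5% higher and 18.3% lower over all genes tested. The median change of the 17 was 0.52. H2-K1 had 1541 and 1667 CPM in the controls and 2231 and 2342 CPM after stimulation (0.51 ± 0.16, edgeR adjusted p = 0.0431), while H2-D1 had 2036 and 2691 against 2703 and 3006 CPM (0.27 ± 0.19, edgeR adjusted p = 0.318). The nonclassical H2-T24 went from 15.2 and 15.3 to 36.5 and 37.7 CPM, at 1.28 ± 0.14 the steepest rise of the list (edgeR adjusted p = 0.00119). H2-Q4 rose by 0.83 ± 0.15, H2-T23, which encodes Qa-1, the ligand of the NKG2A receptor, by 0.69 ± 0.18, H2-Q1 by 0.69 ± 0.16 and H2-M3, which presents formylated peptides, by 0.62 ± 0.15. H2-T22 and H2-T10, ligands of some gamma delta T cells, rose by 1.002 ± 0.21 and 0.79 ± 0.20, but share 53.5% and 50.4% of their 50-base stretches with other transcripts, and H2-Q10 rose by 0.52 ± 0.16. H2-M5 fell by 4.04 ± 0.49, from 1.56 and 2.02 to 0.0792 and 0.131 CPM. Those that did not pass had 0.52 ± 0.19 (H2-Q6), 0.45 ± 0.23 (H2-Q7), 0.39 ± 0.23 (H2-Q2), 0.34 ± 0.30 (H2-T3), 0.31 ± 0.42 (H2-M2) and 0.04 ± 0.43 (Mr1, which presents vitamin metabolites). Cd1d1 had at most 0.0332 CPM and was not tested, and H2-T9 was not analysed here. The count of rises depended on single libraries and on scaling. It was 4 without control 1, 5 without stimulated 2, 5 with total-count scaling, and 11 with no low-count filter. H2-K1 lost its call with each library left out in turn (edgeR adjusted p = 0.11 to 0.187) and with total-count scaling (0.0682). H2-Q10 also lost it with each library left out (0.11 to 0.187), under upper quartile scaling (0.0663) and under total-count scaling (0.0904). H2-T10 and H2-T23 lost it without control 1 (0.074 and 0.0873) and stimulated 2 (0.104 and 0.0905), H2-M3 without control 2 (0.0679) and stimulated 1 (0.0983), and H2-Q1 without control 1 (0.0742). H2-Q6 had 0.0237 and H2-Q7 0.0339 without stimulated 1, and H2-Q2 had 0.0336 without control 2. H2-Q6 also passed in DESeq2 (0.0418). Total-count scaling also ended the calls of H2-T10 and H2-T23 (edgeR adjusted p = 0.0511 and 0.0549). Heavy chain genes are close relatives and differ between mouse strains, so reads may be shared or lost among them.

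Genes for loading and trimming peptides in the endoplasmic reticulum also rose in most cases, in 5 of 6 with a median of 0.68. Of all genes tested, 17.5% rose. Calr, which encodes calreticulin, the chaperone of the loading complex, went from 742 and 895 to 2187 and 2022 CPM (1.36 ± 0.17, edgeR adjusted p = 0.00179). Hspa5, a general chaperone of this compartment, rose by 1.09 ± 0.18, and Canx, which encodes calnexin, by 0.65 ± 0.16. Erap1, which encodes the aminopeptidase that trims peptides to class I length, went from 58.1 and 62.4 to 99.96 and 98.8 CPM (0.72 ± 0.13, edgeR adjusted p = 0.00656). Tapbpl, which encodes the tapasin relative TAPBPR, went from 18.5 and 20.9 to 27.6 and 29.2 CPM (0.53 ± 0.15, edgeR adjusted p = 0.0356). Pdia3, which encodes ERp57, the disulfide partner of tapasin, had 146 and 283 CPM in the controls and 232 and 402 CPM after stimulation, with overlapping groups (0.56 ± 0.42, edgeR adjusted p = 0.362). Without control 1 or stimulated 1 the count of rises was 3. Tapbpl lost its call with each library left out in turn (edgeR adjusted p = 0.0589 to 0.182) under upper quartile scaling (0.0505) and under total-count scaling (0.0714), and Canx without control 1 (0.0906) and stimulated 1 (0.0577).

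The other subunits of the proteasome core rose as well, as did 17.5% of all genes tested. All 11 other 20S core subunits passed, with changes of 0.56 to 1.18 and a median of 0.89, beside 1.41, 1.44 and 1.09 for Psmb8, Psmb9 and Psmb10. The count was 8 without stimulated 1, 9 without control 2 and 10 without stimulated 2, and the calls lost were among Psma7, Psmb1 and Psmb3. Psma6 changed by 1.18 ± 0.14, Psma3 by 1.07 ± 0.15 and Psma4 by 0.85 ± 0.13, all subunits of the outer rings that gate the core. Of 8 other activators and assembly factors 6 rose, with a median of 0.86. With total-count scaling 5 of them rose. Pomp, the chaperone that matures the core and is known to favour immunoproteasome assembly, went from 110 and 94.7 to 213 and 195 CPM (0.99 ± 0.15, edgeR adjusted p = 0.00305). Psme3, which encodes the nuclear activator PA28 gamma, rose by 0.98 ± 0.16 and the assembly chaperone Psmg1 by 0.90 ± 0.14. Psme4, which encodes the activator PA200, and Psmf1, a proteasome inhibitor, had 0.32 ± 0.13 and 0.29 ± 0.14 and did not pass.

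Among cytosolic peptidases, which trim or destroy peptides before TAP, 2 of 6 rose, beside 17.5% of all genes tested. Lap3, a leucine aminopeptidase, went from 63.7 and 66.1 to 212 and 180 CPM (1.59 ± 0.15, edgeR adjusted p = 0.000649). Thop1, which encodes thimet oligopeptidase, a peptide-destroying enzyme, went from 38.1 and 30.6 to 125 and 87.9 CPM (1.63 ± 0.21, edgeR adjusted p = 0.00211). Tpp2, a large peptidase, had 0.09 ± 0.14 and Nrdc 0.28 ± 0.22, and neither passed.

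**Figure D4:**
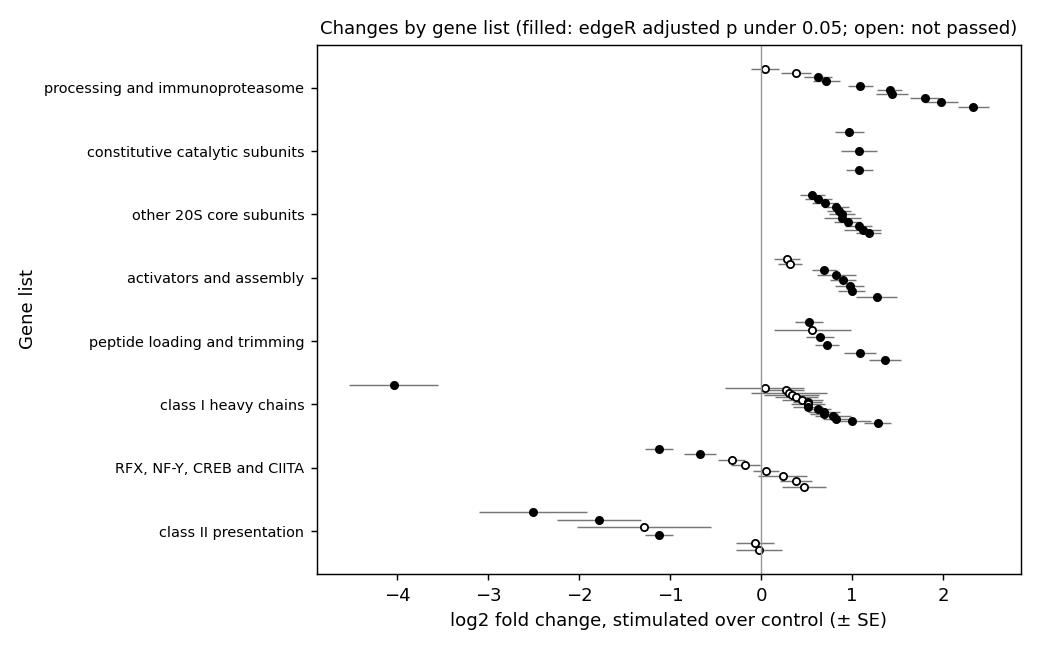
log2 fold change of stimulated over control ± SE (horizontal axis) for every tested gene of 8 lists (vertical axis). Filled points passed at an edgeR adjusted p under 0.05 and open points did not. The 10 processing and immunoproteasome genes reach from 0.04 to 2.33, and all 11 other 20S core subunits lie between 0.56 and 1.18.

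Upstream of the class I genes, components of the interferon gamma pathway rose in 7 of 11 and fell in 1, with a median of 1.28. Over all genes tested, 17.5% were higher and 18.3% lower. The ligand Ifng itself went from 0.199 and 0.137 to 80.8 and 67.9 CPM (8.75 ± 0.26, edgeR adjusted p = 0.000103). Irf1, an interferon-induced factor that binds class I and immunoproteasome promoters, went from 78.4 and 63.0 to 248 and 182 CPM (1.61 ± 0.20, edgeR adjusted p = 0.00178). Socs1, the feedback inhibitor of JAK kinases, went from 24.2 and 22 to 281 and 213 CPM (3.42 ± 0.19, edgeR adjusted p = 0.000183). Jak2 rose by 1.28 ± 0.16, Irf8 by 1.57 ± 0.31 and Irf9 by 0.74 ± 0.13. The receptor chain Ifngr1 fell from 356 and 424 to 129 and 142 CPM (-1.52 ± 0.16, edgeR adjusted p = 0.000878), while Ifngr2 had 0.58 ± 0.24, Jak1 -0.12 ± 0.14 and Irf2 -0.55 ± 0.32 and did not pass. The call of Irf8 ended without stimulated 1 (edgeR adjusted p = 0.0842) and stimulated 2 (0.0725). Ifngr2 passed without stimulated 2 (0.92, edgeR adjusted p = 0.00751) and with no low-count filter (0.0023), and Irf2 passed without control 2 (-0.92, edgeR adjusted p = 0.0323). No arm of the design isolates interferon gamma, so its part in the rise of the 10 genes was not tested.

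NLRC5 and CIITA act through the same promoter-bound factors of the RFX, NF-Y and CREB families. The 8 genes of this list, Ciita included, had a median of -0.06. Of these, 2 fell and 6 did not pass, beside 17.5% higher and 18.3% lower over all genes tested. The counts were likewise 0 higher and 2 lower at an unadjusted p under 0.05 in edgeR, and at an adjusted p under 0.05 in DESeq2 and in limma-voom. Ciita, the class II counterpart of Nlrc5, fell from 69.0 and 74.3 to 30.3 and 35.5 CPM (-1.12 ± 0.15, edgeR adjusted p = 0.00218), the opposite direction to Nlrc5. Creb1 fell by 0.67 ± 0.18 on the log2 scale (edgeR adjusted p = 0.0271). It did not pass without control 2 (0.0942) or without stimulated 1 (0.127). The RFX subunits had -0.32 ± 0.15 (Rfx5), 0.24 ± 0.27 (Rfxap) and -0.17 ± 0.16 (Rfxank). The NF-Y subunits had 0.05 ± 0.14 (Nfya), 0.39 ± 0.18 (Nfyb) and 0.47 ± 0.24 (Nfyc), and Nfyb passed without control 2 (0.60, edgeR adjusted p = 0.0493).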

How the data were processed

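Per the labels' protocols, RNA was isolated with a Qiagen kit and depleted of ribosomal RNA. Per the submitters' processing notes the tools were STAR, Subread and featureCounts, with no versions named. The sources used here give no build, annotation release or use of strand. The deposited count is a raw whole number for each gene, per the file headers. The authors' CPM is the count relative to the summed counts of its library, and the RPKM deposited by the authors is that CPM per kilobase of listed length, both checked on the values. Of 41388 identifiers, 40340 matched GENCODE M21 symbols.

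All genes kept by filterByExpr were tested with edgeR 4.0.16 (quasi-likelihood, robust, TMM; R 4.3.3, limma 3.58.1), treatment as the only term, with Benjamini-Hochberg adjustment and a threshold of 0.05. The common biological coefficient of variation was 18.4%, and libraries of a group differed beyond counting error. The script was tested on simulated data. Library number was no block, because the labels do not state that equal numbers pair the samples. A fit with library number as a block is given below. Named genes were all 10 members and, except for genes not reported here, every listed gene of the constitutive catalytic, loading, heavy chain, promoter factor and interferon gamma lists. Of other lists they were, by adjusted p, the first 3 genes that passed, and the 2 of highest level that did not. The members and lists were chosen with earlier results of these data known. Promoter sequences are from RefSeq (GRCm38.p6), where 8 of the 10 genes had a window. Shared stretches were counted in GENCODE M21 transcripts. Alternatives were other scalings, filters, DESeq2 1.42.0, limma-voom, no robust estimation, a library block and each library left out. Principal transcript lengths were added after seeing the data.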

Additional observations from a re-analysis of the deposited data

How the results depend on the processing

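Of the 10 genes, 7 kept their call and direction in all 13 alternatives, and over these 10 genes and the alternatives 123 of 130 results did. The exceptions were Tap2 and B2m, given above, and Tapbp, whose change of 0.04 became -0.010 with upper quartile scaling, -0.051 with total-count scaling and -0.076 to 0.16 with 1 library left out, lowest without control 1. The count of the 10 that rose was 7 to 9, and it was 7 to 8 with 1 library left out. Over all genes, 2417 rose and 2533 fell. Without 1 library these counts were 1593 to 2001 and 1665 to 2035, where fewer samples enter the test, and lowest without stimulated 1. Of the 82 tested genes of the other lists 44 rose and 7 fell. With a replicate block for library number 3986 genes were higher and 4000 lower, 58 of the other listed genes were higher and 11 lower, and B2m passed (edgeR adjusted p = 0.0243), as did Pdia3 (edgeR adjusted p = 5.24e-06). The counts for the RFX, NF-Y, CREB and CIITA list were then 3 higher (Nfyb, Nfyc and Rfxap) and 3 lower (Ciita, Creb1 and Rfx5). The differences between number 1 and number 2 correlated across genes at r = 0.551 between the groups, a hint from the data and not from the design. The log2 change of the summed subunit ratio was 0.24 with listed and 0.28 with principal transcript lengths. Total-count scaling moved the median of all genes to -0.108.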

Other observations

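Class II presentation, which uses a separate set of MHC genes, showed no rise. Of 10 listed genes 6 were tested, 3 fell and 3 did not pass, beside 18.3% lower over all genes tested. The median of the 6 was -1.20. At an unadjusted p under 0.05 in edgeR the counts were 0 higher and 3 lower. At an adjusted p under 0.05 they were 0 and 2 in DESeq2 and 0 and 3 in limma-voom. Those that fell were Ciita, H2-Oa and H2-Aa, described above. Cd74, which encodes the invariant chain, had 299.6 and 197 CPM in the controls and 237 and 236 CPM after stimulation (-0.07 ± 0.21, edgeR adjusted p = 0.827). H2-DMa stayed at 3.32 to 3.66 CPM over the 4 libraries. H2-Ab1, a class II beta chain, had at most 0.0664 CPM.

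Of 7 genes of cross-presentation and of quality control in the endoplasmic reticulum, 1 rose and 1 fell, beside 17.5% higher and 18.3% lower over all genes tested. Sec61a1, the channel through which proteins enter this compartment, went from 422 and 416 to 677 and 554 CPM (0.55 ± 0.16, edgeR adjusted p = 0.0351). It did not pass without control 1 (0.0871), without control 2 (0.0996), without stimulated 1 (0.199) or with total-count scaling (0.051). Wdfy4, known for cross-presentation by dendritic cells, fell from 0.697 and 1.74 to 0.0396 and 0.131 CPM (-3.79 ± 0.77, edgeR adjusted p = 0.0103), with -2.99 without control 2, -3.17 without stimulated 1 and -4.77 without stimulated 2. Uggt1, which senses misfolded glycoproteins, had 0.29 ± 0.14 and Sel1l, of the degradation machinery, 0.14 ± 0.18, and neither passed.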
